A study of Mus musculus with 8 samples.

Results

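The 8 genes described here encode transcription factors that specify or maintain hepatocytes: Onecut1, Onecut2, Foxa1, Foxa2, Foxa3, Cebpa, Cebpb and Prox1. They were picked by gene symbol, and all 8 were found among the 25124 gene rows of the expression table. To see how activation of the bile acid receptor FXR acts on liver transcription, the study measured total liver RNA (RNA-seq) and nascent RNA from isolated nuclei (global run-on sequencing, GRO-seq) in livers of mice. After an overnight fast the animals were injected intraperitoneally with GW4064, an agonist of FXR made by synthesis, or with vehicle; the dose was 30 mg/kg and livers were taken after 1 h. The RNA-seq groups were C57BL/6 WT mice with GW4064 (2 libraries) or vehicle (2 libraries), and each library pooled the liver RNA of 2 mice. The GRO-seq groups were FXR KO mice with GW4064, FXR KO mice with vehicle, WT mice with GW4064 and WT mice with vehicle, with 1 library each, so these values have no replicate check, and although n is given as 2 per group for this assay, pooling of animals into the 1 library is not described in the sources used here. The mice were male, their ages were not given in the sources used here, and the labels name DMSO as the vehicle where the study names corn oil. The study describes the FXR KO mice as Fxr-LKO, in which Albumin-Cre deletes Fxr in hepatocytes, and the GRO-seq WT mice as the Fxr-Flox parent line, so both genotypes carry the floxed allele.

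Onecut factors bind DNA through a cut domain and a homeodomain, and Onecut1, also called HNF6, takes part in the development of hepatocytes and bile ducts. The FOXA proteins are pioneer factors that open compacted chromatin at liver enhancers, the C/EBP proteins are leucine zipper factors of metabolic and acute phase genes, and PROX1 is a homeodomain corepressor needed for hepatoblast expansion and hepatocyte identity. FXR, encoded by Nr1h4, is a nuclear receptor that binds DNA with RXR at inverted repeats of the receptor half-site and induces Nr0b2, whose product SHP represses other factors.

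Promoter sequences are shown for the members with the largest changes in nascent RNA, as the 250 bases directly upstream of the annotated start on the gene's own strand (RefSeq, GRCm38.p6). The spans are chr9:74861671-74861920 for Onecut1, chr12:57546112-57546361 for Foxa1, chr2:148045465-148045714 for Foxa2, chr7:19023540-19023789 for Foxa3 and chr1:190170828-190171077 for Prox1. Capitals mark matches, on either strand, to the forkhead motif or the TATA motif.
Onecut1: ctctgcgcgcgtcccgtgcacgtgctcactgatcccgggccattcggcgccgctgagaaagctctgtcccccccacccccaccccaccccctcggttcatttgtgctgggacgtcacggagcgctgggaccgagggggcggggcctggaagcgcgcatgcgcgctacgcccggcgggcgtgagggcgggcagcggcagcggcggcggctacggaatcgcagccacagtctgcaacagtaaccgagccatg
Foxa1: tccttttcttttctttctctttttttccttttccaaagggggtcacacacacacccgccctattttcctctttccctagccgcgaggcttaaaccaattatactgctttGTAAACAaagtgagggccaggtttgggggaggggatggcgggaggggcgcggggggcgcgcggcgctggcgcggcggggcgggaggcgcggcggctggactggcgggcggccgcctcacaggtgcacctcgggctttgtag
Foxa2: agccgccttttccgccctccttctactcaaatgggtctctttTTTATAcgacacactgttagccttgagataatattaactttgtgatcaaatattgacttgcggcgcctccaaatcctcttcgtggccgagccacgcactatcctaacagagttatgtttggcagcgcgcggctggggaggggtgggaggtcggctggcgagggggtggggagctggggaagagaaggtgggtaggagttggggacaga
Foxa3: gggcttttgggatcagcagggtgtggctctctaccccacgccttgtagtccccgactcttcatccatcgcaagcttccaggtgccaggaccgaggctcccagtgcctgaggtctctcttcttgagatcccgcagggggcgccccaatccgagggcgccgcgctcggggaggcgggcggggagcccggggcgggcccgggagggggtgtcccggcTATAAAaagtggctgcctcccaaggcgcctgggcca
Prox1: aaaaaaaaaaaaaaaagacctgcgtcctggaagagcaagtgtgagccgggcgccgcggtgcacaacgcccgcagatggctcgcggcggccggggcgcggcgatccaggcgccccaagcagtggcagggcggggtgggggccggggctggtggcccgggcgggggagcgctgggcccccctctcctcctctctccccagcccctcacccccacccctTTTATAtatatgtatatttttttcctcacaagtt

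Among the 7 members whose promoter was read (none was read for Onecut2), 5 held a match to any of the 6 motifs searched. Foxa1 alone held the forkhead motif TGTTTAC, with its first base 141 bases upstream, on the opposite strand (GTAAACA as printed). That motif occurs in 3.17% of 32851 promoters of the same length. The TATA motif TATAAA, found in 12.4% of promoters, began 34 bases upstream in Prox1, 36 in Foxa3, 30 in Cebpa and 208 in Foxa2, and was on the opposite strand (TTTATA as printed) in Prox1 and Foxa2. The receptor half-site AGGTCA (14.0% of promoters), the inverted repeat of that half-site with 1 base between its arms (0.00609%), the Onecut motif ATTGAT (6.72%) and the C/EBP motif TTGCNNAA (9.56%) were searched on both strands and found in none of the 7. The half-site is part of the inverted repeat, and no other pair of these motifs was seen to overlap in the 7 promoters. GC content was 71.6% in Onecut1, 81.6% in Cebpb and 54.4% in Foxa2, whose window was the poorest in GC of the 7.

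The values are RPKM, reads per kilobase of gene row scaled to the reads of the library, and each row spans the whole gene with its introns. The share of a row's bases that are exonic in GENCODE M21 was 7.14% for Onecut1 (chr9:74861921-74889647), 15.9% for Prox1 (chr1:190118035-190170827), 19.9% for Foxa3 (chr7:19013283-19023539) and 23.0% for Onecut2. It was 58.0% for Foxa1 (chr12:57540628-57546111) and 82.6% for Foxa2 (chr2:148042877-148045464), and it was 99.1% for Cebpb (chr2:167688915-167690432), while the row of Cebpa (chr7:35119293-35121928) is exonic throughout. RNA-seq values of the genes other than Cebpa and Cebpb can therefore hold both spliced and unspliced RNA. For RNA-seq the study describes both removal of ribosomal RNA and polyadenylated mRNA libraries, and the share of unspliced RNA was not measured. GENCODE also places Gm20649 over Onecut1 on the same strand, and, on the opposite strand, Gm45091 over Cebpa, Tmem189 over Cebpb, and Gm28172 and Prox1os over Prox1. The strand setting of the counting is not given in the sources used here, so reads of these overlapping genes cannot be told apart from those of the members.

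Reads behind the RPKM values, rebuilt from their steps, numbered 13924470 to 14047228 per RNA-seq library, 5069401 and 5141668 in the FXR KO GRO-seq libraries with GW4064 and vehicle, and 10593332 and 14173741 in the WT GRO-seq libraries with GW4064 and vehicle. Nr0b2, the classical FXR target, stood at 31.5 and 30.5 RPKM in the 2 GW4064 RNA-seq libraries, against 6.83 and 4.04 RPKM with vehicle. In GRO-seq it was carried by 20 reads with GW4064 and 2 reads with vehicle in FXR KO livers (1.19 and 0.118 RPKM). In WT livers it was carried by 1284 reads with GW4064 and 171 with vehicle (36.6 and 3.645 RPKM). The log2 ratio of GW4064 over vehicle, with nothing added, was 3.34 in FXR KO livers (interval for counting error 1.30 to 6.48). It was 3.33 in WT livers (3.10 to 3.57). Nr0b2 was thus higher with GW4064 in both genotypes, at a lower level and on few reads in FXR KO livers. Nr1h4 itself does not check the deletion, since its row covers the whole gene (20.6 RPKM with GW4064 and 16.7 with vehicle in FXR KO livers, against 4.23 RPKM with GW4064 and 15.1 with vehicle in WT livers). Of 6 hepatocyte markers, among them Alb, none passed the RNA-seq test (2 lower at an unadjusted p under 0.05 with limma, and Ttr called lower by limma-voom), and their summed level was 330.2 and 369.0 RPKM with GW4064, against 369.3 and 366.1 with vehicle. The same sum in GRO-seq was 913.6 RPKM with GW4064 and 984.3 with vehicle in FXR KO livers, against 553.4 with GW4064 and 565.4 with vehicle in WT livers. Of 19 measured markers in 6 lists for other liver and blood cell types, none passed the RNA-seq test (3 higher at an unadjusted p under 0.05 with limma, and the stellate marker Colec11 called higher by limma-voom), and the lymphatic marker Ccl21a was at 0 in all libraries. In bulk liver, fewer cells of a type and less RNA per cell cannot be told apart.

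**Figure D1:**
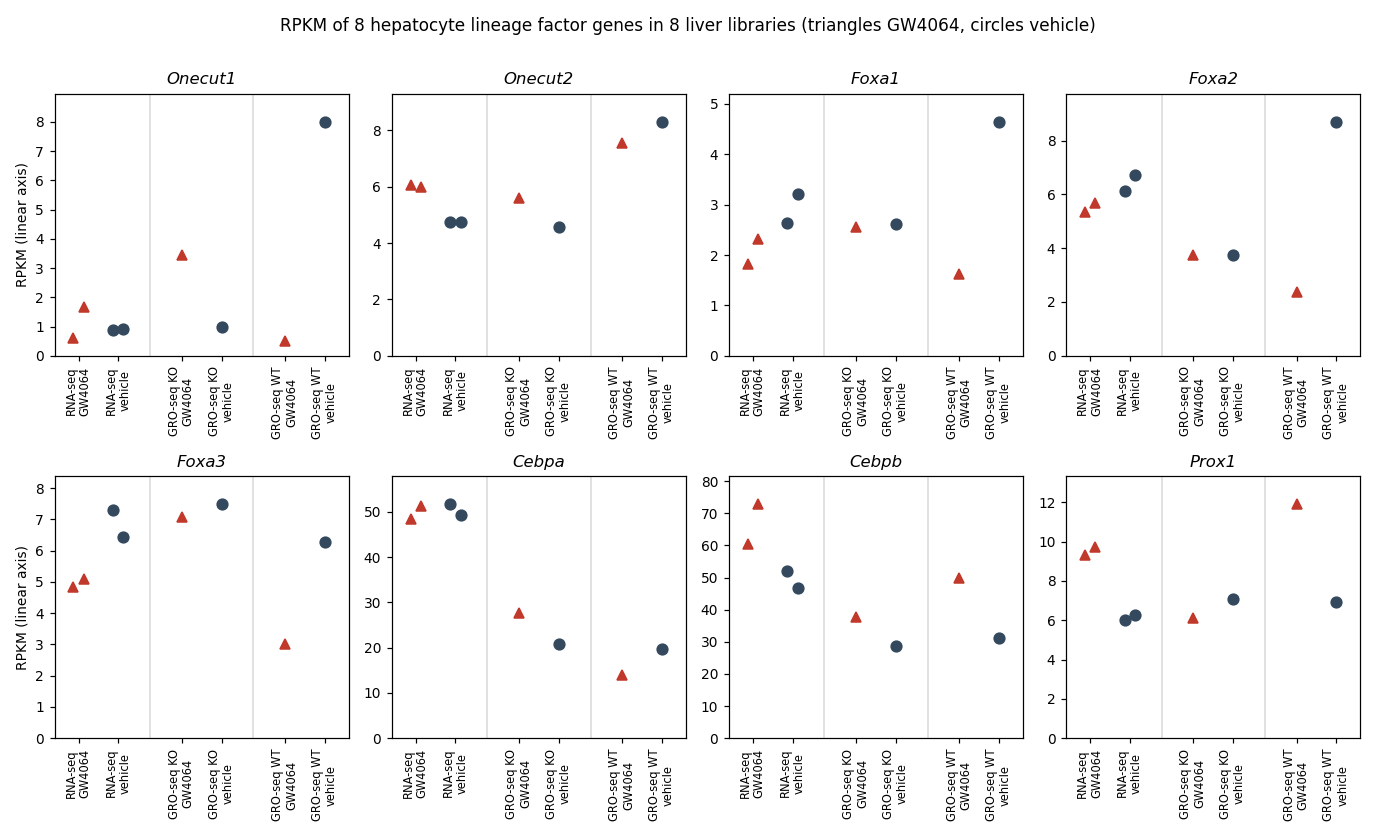
RPKM (linear axes from 0) of the 8 genes, 1 panel each, in the 8 libraries: RNA-seq with GW4064 and vehicle, FXR KO GRO-seq with GW4064 and vehicle, and WT GRO-seq with GW4064 and vehicle; triangles are GW4064 and circles vehicle. Onecut1 is highest in the WT vehicle GRO-seq library at 8.005 RPKM, while Prox1 is highest in the WT GW4064 GRO-seq library at 11.9 RPKM.

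In RNA-seq, Cebpa and Cebpb were the most abundant of the 8 genes per length and Onecut1 the least. Cebpa and Cebpb were also the highest in every GRO-seq library, while the place of Onecut1 changed between libraries. Onecut1 was the lowest in WT livers with GW4064 (0.507 RPKM) and in FXR KO livers with vehicle (0.975). In FXR KO livers with GW4064 (3.44) it stood above Foxa1 (2.55) alone. In WT livers with vehicle (8.005 RPKM) it stood above Prox1 (6.95), Foxa3 (6.27) and Foxa1 (4.64). With vehicle, RNA-seq levels averaged 50.5 ± 1.77 RPKM for Cebpa and 49.4 ± 3.79 for Cebpb (SD, n = 2), which did not differ beyond their spread. Foxa3 (6.87 ± 0.612), Foxa2 (6.42 ± 0.412) and Prox1 (6.12 ± 0.187) came next, and each of these overlapped its neighbour in the order. Onecut2 (4.75 ± 0.012), Foxa1 (2.92 ± 0.398) and Onecut1 (0.909 ± 0.0219) followed, each with both libraries below those of the gene before it. With GW4064 Cebpb reached 1.02 reads per base in 1 library.

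Of the 8 members, all of which passed the filter of a mean of 0.5 RPKM, Prox1 alone changed in RNA-seq. It rose, and the remaining 7 did not pass the test (adjusted p under 0.05, limma on log2 of RPKM + 0.1, 2 libraries per treatment). Over all 11408 genes tested, 2.13% were called higher with GW4064 and 1.15% lower. Limma-voom on the rebuilt reads called 2 members higher (Prox1 and Onecut2) and 1 lower (Foxa3), against 4.9% and 4.19% of all genes. For 6 members the treatments did not overlap, with 3 higher and 3 lower with GW4064, where 26.0% of all genes were higher without overlap, 28.1% lower and 54.1% either. The same 6 members had an unadjusted p under 0.05 with limma, as did 1209 genes that were higher and 1207 that were lower of the 11408.

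Prox1 was at 9.31 and 9.74 RPKM with GW4064, against 5.99 and 6.25 RPKM with vehicle. Both GW4064 libraries lay above both vehicle libraries. The fitted change was 1.55-fold (log2 fold change 0.63, standard error 0.06, 95% interval 0.46 to 0.80, limma adjusted p = 0.0303). The call was lost without any one library, whether GW4064 replicate 1 (limma adjusted p = 0.152), GW4064 replicate 2 (0.153), vehicle replicate 1 (0.158) or vehicle replicate 2 (0.167), fits in which the lone library of a treatment is taken to vary like the other treatment, and the log2 fold change stayed between 0.60 and 0.66. With limma-voom on the rebuilt reads it was called with all libraries (adjusted p = 0.00367) and without each library in turn (adjusted p between 0.0232 and 0.043).

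Onecut2 was at 6.07 and 5.99 RPKM with GW4064, against 4.75 and 4.74 RPKM with vehicle. These 4 values lay closer within treatments than for any other member, and the groups did not overlap. The fitted log2 fold change was 0.34 (standard error 0.05, limma adjusted p = 0.0633), and limma-voom called it higher (adjusted p = 0.0192), a call lost without any one library (limma-voom adjusted p between 0.0716 and 0.133). Onecut1, its paralog, was at 0.609 and 1.66 RPKM with GW4064, against 0.893 and 0.924 with vehicle. The GW4064 libraries lay on either side of the vehicle libraries and far from each other: their gap was 1.31 on the log2 scale, and 173 of the 11408 genes (1.52%) had a larger one, while the vehicle gap was 0.04. The fitted log2 fold change of Onecut1 was 0.15 with a 95% interval from -1.19 to 1.48 (limma adjusted p = 0.897). It became -0.51 without GW4064 replicate 2 and 0.80 without GW4064 replicate 1, and with limma-voom -0.56 (adjusted p = 0.0554) and 0.86 (adjusted p = 0.0137), so 1 library decided both the sign and, with limma-voom, the call. Onecut1 is also known from bile duct cells, and the summed level of 6 cholangiocyte markers was 4.05 and 7.78 RPKM with GW4064, against 5.07 and 6.12 with vehicle. All 6 (Krt19, Krt7, Sox9, Spp1, Epcam and Cftr) were higher in the GW4064 library with the higher Onecut1 value, 2 of the 6 passed the filter, and none was at 0. The summed level of 6 hepatocyte markers was higher in that library too (369.0 against 330.2 RPKM in the other GW4064 library). All 6 cholangiocyte markers were also higher in vehicle replicate 2 than in vehicle replicate 1, though Sox9 (1.271 and 1.268 RPKM) and Cftr (0.014 and 0.011) nearly tied. Onecut1 was slightly higher in vehicle replicate 2 too (0.924 and 0.893 RPKM). In GRO-seq the cholangiocyte sum stayed between 2.86 and 3.30 RPKM in FXR KO and between 2.80 and 2.93 in WT livers. Single markers were not all level: in WT livers Sox9 was higher with GW4064 (1.69 against 1.11 RPKM) and Spp1 lower (1.15 against 1.48). The part of bile duct cells in the RNA-seq values of Onecut1 was not tested.

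The 3 FOXA genes, of which Foxa1 and Foxa2 act together to allow liver specification in the mouse embryo, all had lower values with GW4064, without overlap, and none passed the test. Foxa1 was at 1.82 and 2.31 RPKM with GW4064, against 2.64 and 3.21 with vehicle (log2 fold change -0.49, standard error 0.16, limma adjusted p = 0.212). Foxa2 was at 5.33 and 5.69 RPKM with GW4064, against 6.13 and 6.71 with vehicle (log2 fold change -0.22, standard error 0.08, limma adjusted p = 0.233). Foxa3 was at 4.83 and 5.08 RPKM with GW4064, against 7.31 and 6.44 with vehicle (log2 fold change -0.46, standard error 0.09, limma adjusted p = 0.0942). Limma-voom called Foxa3 lower (adjusted p = 0.0233) and did not call Foxa1 (0.111) or Foxa2 (0.251). The Foxa3 call was lost without any one library (limma-voom adjusted p between 0.0586 and 0.108).

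Cebpa, which drives the mature metabolic program of hepatocytes, was at 48.4 and 51.4 RPKM with GW4064, against 51.7 and 49.2 with vehicle. These ranges overlapped, and the fitted log2 fold change was -0.02 with a 95% interval from -0.20 to 0.17, which holds 0 (limma adjusted p = 0.914). Cebpb, the stress- and cytokine-responsive member of the family, was at 60.5 and 72.9 RPKM with GW4064, against 52.0 and 46.7 with vehicle. Its GW4064 values were both higher, but the gap between them was also wide, and the log2 fold change of 0.43 (standard error 0.12) did not pass the test (limma adjusted p = 0.176; limma-voom adjusted p = 0.054).

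**Figure D2:**
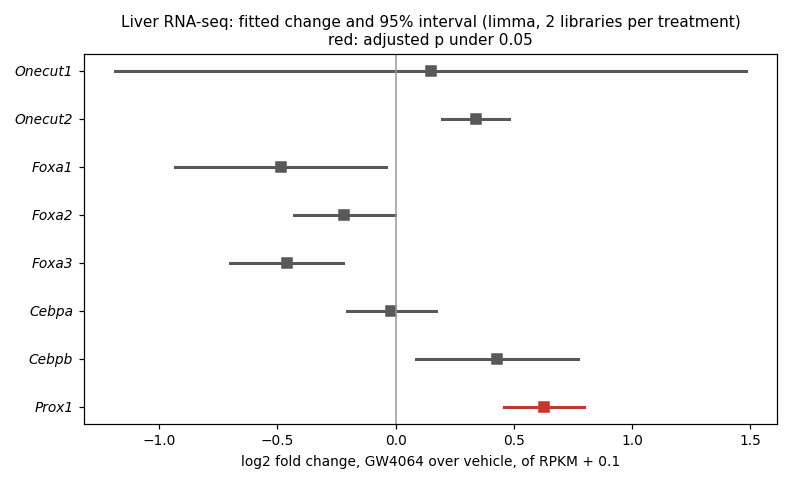
Log2 fold change of RPKM + 0.1, GW4064 over vehicle, for the 8 genes in RNA-seq (2 libraries per treatment); squares are fitted values, bars 95% intervals from limma, and red marks an adjusted p under 0.05. Only the interval of Prox1, 0.46 to 0.80, is red, and that of Onecut1 spans -1.19 to 1.48.

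For several members the GRO-seq ratios were larger than the changes fitted to 2 RNA-seq libraries per treatment. The 2 measures are unlike, and whether nascent RNA changed more was not tested. In FXR KO livers 1 of the 8 members was past 1.5-fold higher with GW4064 (Onecut1) and none past 1.5-fold lower, against 5.0% and 5.27% of the 10169 genes compared. In WT livers, 2 were past 1.5-fold higher (Cebpb and Prox1; 7.32% of genes) and 4 past 1.5-fold lower (Onecut1, Foxa1, Foxa2 and Foxa3; 8.01% of genes). Each of these values is a single library over another, with no test, and the intervals given below cover counting error only. For 5 members the 1.5-fold mark was passed in WT and not in FXR KO livers, against 11.3% of all genes. These were Foxa1, Foxa2, Foxa3, Prox1 and Cebpb, though Cebpb was higher in FXR KO livers too (log2 ratio 0.39, counting interval 0.14 to 0.65). Onecut1 passed the mark in both genotypes, in opposite directions. The median of all genes moved by -0.02 in FXR KO and -0.09 in WT livers on the log2 scale.

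Onecut1 held 3.44 RPKM with GW4064 in FXR KO livers (483 reads), against 0.975 RPKM with vehicle (139 reads). In WT livers it held 0.507 RPKM with GW4064 (149 reads), against 8.005 RPKM with vehicle (3146 reads). The gene thus stood higher with GW4064 in FXR KO and lower in WT livers. The log2 ratio, after adding 0.1 RPKM, was 1.72 in FXR KO (95% counting interval of the ratio with nothing added 1.54 to 2.10) and -3.74 in WT (-4.23 to -3.74). Of 10169 genes, 124 had a higher ratio in FXR KO and 42 a lower one in WT livers. As in RNA-seq, where its GW4064 libraries were far apart, Onecut1 varied widely between libraries, and its highest value, in WT livers with vehicle, rests on 1 library. With vehicle, FXR KO over WT livers gave a log2 ratio of -2.91.

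Onecut2 varied less than Onecut1 in the same 4 libraries. It was at 5.60 RPKM with GW4064 in FXR KO livers, against 4.56 with vehicle (log2 ratio 0.29, counting interval 0.19 to 0.40). In WT livers it was at 7.57 RPKM with GW4064, against 8.31 with vehicle (log2 ratio -0.13, counting interval -0.19 to -0.08). Both vehicle and GW4064 values of Onecut2 were lower in FXR KO than in WT livers.

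The FOXA genes had ratios near 0 in FXR KO livers and lower values with GW4064 in WT livers. Foxa1 stood at 2.55 RPKM with GW4064 and 2.62 with vehicle in FXR KO livers (log2 ratio -0.04), against 1.62 with GW4064 and 4.64 with vehicle in WT livers (log2 ratio -1.47). Foxa2 stood at 3.74 RPKM with GW4064 and 3.76 with vehicle in FXR KO livers (log2 ratio -0.01), against 2.37 with GW4064 and 8.70 with vehicle in WT livers (log2 ratio -1.83). For Foxa3 the values were 7.08 RPKM with GW4064 and 7.49 with vehicle in FXR KO livers (log2 ratio -0.08), against 3.02 with GW4064 and 6.27 with vehicle in WT livers (log2 ratio -1.03). Reads were few for the 2 shorter genes: 49 and 50 reads for Foxa2 and 71 and 74 reads for Foxa1 in the FXR KO libraries, so their counting intervals there run from -0.61 to 0.59 and from -0.53 to 0.45. Over all genes, 99 had a lower WT ratio than Foxa2, 128 than Foxa1 and 255 than Foxa3.

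Cebpa and Cebpb took different directions in WT livers. Cebpa was at 27.5 RPKM with GW4064 and 20.8 with vehicle in FXR KO livers (log2 ratio 0.40, counting interval 0.18 to 0.63), against 14.0 with GW4064 and 19.6 with vehicle in WT livers (log2 ratio -0.48, counting interval -0.66 to -0.30). Cebpb was at 37.6 RPKM with GW4064 and 28.6 with vehicle in FXR KO livers (log2 ratio 0.39, counting interval 0.14 to 0.65), against 49.8 with GW4064 and 31.2 with vehicle in WT livers (log2 ratio 0.67, counting interval 0.53 to 0.83). Cebpb was thus higher with GW4064 in both genotypes and in RNA-seq, and Cebpa was past 1.5-fold in neither genotype.

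Prox1 was at 6.11 RPKM with GW4064 in FXR KO livers, against 7.08 with vehicle (log2 ratio -0.21, counting interval -0.31 to -0.12). In WT livers it was at 11.9 RPKM with GW4064, against 6.95 with vehicle (log2 ratio 0.77, counting interval 0.72 to 0.83). The 3 libraries without both GW4064 and the intact receptor lay between 6.11 and 7.08 RPKM, and the WT GW4064 library stood above them. Prox1 had 1634 or more reads in each library, so counting error was small, and the spread between animals was not measured.

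With vehicle, 4 members were past 1.5-fold lower in FXR KO than in WT livers and none past 1.5-fold higher, against 7.4% and 7.3% of all genes. These were Onecut1 (log2 ratio -2.91), Foxa2 (-1.19), Onecut2 (-0.85) and Foxa1 (-0.80). Foxa3 (0.25), Cebpa (0.09), Prox1 (0.03) and Cebpb (-0.12) were within that mark. This comparison and the GW4064 comparison in WT livers share the WT vehicle library, in which Onecut1, Onecut2, Foxa1 and Foxa2 had their highest GRO-seq values. The FXR KO libraries also had fewer reads than the WT libraries and a higher summed level of hepatocyte markers (984.3 RPKM in FXR KO and 565.4 RPKM in WT livers with vehicle). With vehicle, Alb (271 RPKM in FXR KO and 164 in WT livers), Apoa1 (345 and 142) and Ahsg (211 and 97.9) carried that gap. Fga (68.7 and 72.3), Ttr (64.8 and 63.1) and Serpina1c (24.0 and 26.3) were nearly level or lower in FXR KO livers. The part of read number and marker levels in these ratios was not tested.

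**Figure D3:**
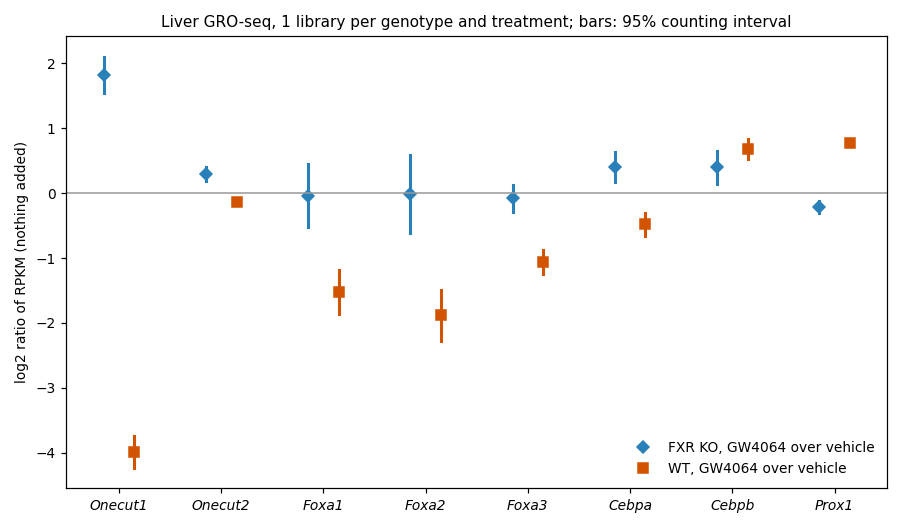
Log2 ratio of GRO-seq RPKM, GW4064 over vehicle, with nothing added, for the 8 genes in FXR KO (diamonds) and WT livers (squares), 1 library per genotype and treatment; bars are 95% counting intervals. Onecut1 lies above 0 in FXR KO and farthest below 0 in WT livers, while Prox1 lies at -0.21 in FXR KO and 0.78 in WT livers.

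RNA-seq and WT GRO-seq, which share no library, gave the same sign of change with GW4064 for 6 of the 8 members, as for 69.2% of 9992 genes measured in both. Onecut1 (0.15 in RNA-seq and -3.74 in GRO-seq on the log2 scale) and Onecut2 (0.34 and -0.13) had opposite signs. Prox1 had 0.63 and 0.77 and Cebpb 0.43 and 0.67, while the FOXA genes were negative in both, with lower values in GRO-seq. The GRO-seq values rest on 1 library per treatment and the RNA-seq values on 2, so their sizes are not directly comparable.

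The rows beside the members were read too, and those described here were picked after their values were seen. Gm16551, a non-coding gene on the strand of Onecut1 whose row ends 9049 bases upstream of it, was at 0.502 and 1.68 RPKM with GW4064 in RNA-seq, against 0.858 and 0.626 with vehicle. Its GW4064 libraries stood apart in the same order as those of Onecut1. In GRO-seq Gm16551 was at 1.16 RPKM with GW4064 and 0.746 with vehicle in FXR KO livers, against 0.255 with GW4064 and 2.69 with vehicle in WT livers, with 12 to 169 reads per library. LOC102632463, which RefSeq names Prox1os, starts inside Prox1 on the opposite strand and overlaps its row by 532 bases. It was at 5.26 and 5.11 RPKM with GW4064 in RNA-seq, against 3.03 and 3.82 with vehicle (log2 fold change 0.59, limma adjusted p = 0.117). In GRO-seq LOC102632463 was at 5.78 RPKM with GW4064 and 6.54 with vehicle in FXR KO livers, against 8.57 with GW4064 and 4.31 with vehicle in WT livers. With vehicle, LOC102632463 was higher in FXR KO than in WT livers (log2 ratio 0.59), while Prox1 was nearly level (0.03). The values of LOC102632463 were higher with GW4064 in the same libraries as those of Prox1. By contrast Sympk, which begins 838 bases from Foxa3 on the opposite strand, had log2 ratios of -0.11 in FXR KO and -0.04 in WT livers.

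**Figure D4:**
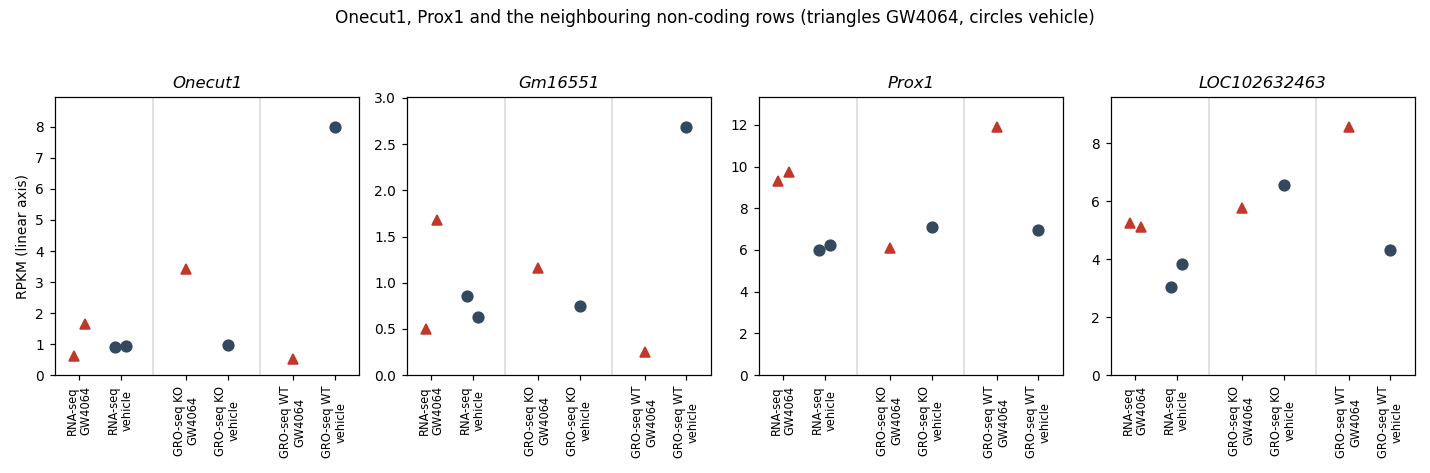
RPKM (linear axes from 0) of Onecut1, its upstream neighbour Gm16551, Prox1 and the antisense row LOC102632463 in the 8 libraries; triangles are GW4064 and circles vehicle. Gm16551 peaks at 2.69 RPKM in the WT vehicle GRO-seq library, as Onecut1 does at 8.005, and LOC102632463 peaks at 8.57 RPKM in the WT GW4064 library, as Prox1 does at 11.9.

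Among the 5 protein-coding genes whose pattern lay nearest to that of Onecut1 were Ugt2a3, Smad9, Keg1 and Aacs. Likeness was the Euclidean distance, over the 8 libraries, of log2(RPKM + 0.1) centred within each assay, and the distance was 1.61 for Ugt2a3, 1.63 for Smad9, 2.0 for Keg1 and 2.04 for Aacs, beside a median of 3.03 over 8991 genes. Ugt2a3, a glucuronosyltransferase gene, was at 10.2 RPKM with GW4064 and 5.52 with vehicle in FXR KO GRO-seq, against 3.48 with GW4064 and 14.0 with vehicle in WT. Smad9, a SMAD of the BMP pathway, was at 0.786 RPKM with GW4064 and 0.745 with vehicle in FXR KO GRO-seq, against 0.374 with GW4064 and 2.35 with vehicle in WT. These genes were chosen for their likeness to Onecut1 over the same libraries, so the shared pattern is a description only, and Smad9 was nearly level between treatments in FXR KO livers, where Onecut1 was not. None of the 5 passed the RNA-seq test (limma adjusted p between 0.125 and 0.855), 1 of them was lower at an unadjusted p under 0.05, and limma-voom called Aacs lower.

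Other hepatocyte lineage factors, a list of 19 genes of which 16 were measured in RNA-seq, held 1 gene that fell and none that rose, while 15 were not called, with a median log2 fold change of -0.06 beside -0.0028 over all genes. The gene that fell was Zhx2, a repressor of fetal liver genes, at 1.20 RPKM in both GW4064 libraries, against 1.72 and 1.74 with vehicle (log2 fold change -0.49, limma adjusted p = 0.0344). Nr5a2, the nuclear receptor LRH-1, had a log2 fold change of -0.60 (limma adjusted p = 0.0558) and Gata4 one of 0.56 (0.0769). Limma-voom called 2 of the list higher, Gata4 and Creb3l3, and 3 lower, Zhx2 and Nr5a2 among them. Over all genes limma called 2.13% higher and 1.15% lower, and limma-voom 4.9% and 4.19%. None of the 4 other C/EBP family genes, Cebpd, Cebpe, Cebpg and Ddit3, passed the test (median log2 fold change 0.04, limma adjusted p between 0.424 and 0.934), and the count was 0 too at an unadjusted p under 0.05 and by limma-voom.

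Of 25 hepatocyte genes known as targets of these factors, 24 were measured, of which 1 rose, 1 fell and 22 were not called, with a median log2 fold change of -0.06. G6pc, the last enzyme of gluconeogenesis, was at 40.5 and 42.5 RPKM with GW4064, against 28.8 and 27.0 with vehicle (log2 fold change 0.57, limma adjusted p = 0.0429). Tdo2, which opens tryptophan breakdown, was at 19.1 and 21.1 RPKM with GW4064, against 31.4 and 30.3 with vehicle (log2 fold change -0.62, limma adjusted p = 0.0462). Ttr, transthyretin and a FOXA target, had a log2 fold change of -0.51 (limma adjusted p = 0.0612). Limma-voom called 3 of these targets higher, G6pc, Slc2a2 and Orm1, and 3 lower, Tdo2 and Ttr among them. The shares over all genes were 2.13% higher and 1.15% lower with limma, and 4.9% and 4.19% with limma-voom. Among 9 measured immediate early genes, set beside Cebpb because it too responds quickly to stress, Ier2 rose (log2 fold change 0.88, limma adjusted p = 0.0373), the other 8 were not called, and none fell. Their median log2 fold change was 0.37, with Atf3 at 1.60 (limma adjusted p = 0.0544), Jun at 0.99 (0.109) and Ier3 at 0.47 (0.186). Egr1 went the other way at -0.51 (limma adjusted p = 0.385). At an unadjusted p under 0.05 with limma, 5 were higher and 0 lower, and limma-voom called 3 higher, Ier2, Atf3 and Jun. The part of the immediate early genes in the values of Cebpb was not tested.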

How the data were processed

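Liver RNA-seq (4 libraries) and GRO-seq (4 libraries) were read from 1 table of RPKM values that the authors deposited, made from reads mapped to mm10 with STAR 2.7.3a and quantified over whole genes with HOMER. The labels name a stranded TruSeq kit and the methods a Kapa HyperPrep kit. Whole reads were recovered from the RPKM steps within 0.15 reads for at least 99.99% of the values tested in each library.
RNA-seq genes averaging 0.5 RPKM or more were compared with limma 3.58.1 (R 4.3.3) on log2(RPKM + 0.1), with eBayes at trend=TRUE and Benjamini-Hochberg adjustment over 11408 genes. Adding 0.1 understates changes of low genes. GRO-seq ratios carry exact conditional binomial 95% intervals from recovered reads; these cover counting error only. Whether same-numbered libraries pair was checked by the correlation of their deviations (r = -0.02 over genes), and they were not paired.
Other settings were an added 0.01 or 1 RPKM, a filter at 1 RPKM or none, quantile normalization, median centring, trend=FALSE, a replicate block, limma-voom and each library left out. Scripts were tested on simulated data. Members and gene lists were chosen with earlier results of these data known. The text names every member, Nr1h4 and Nr0b2, for each list the genes past the threshold or, below 4 such genes, those with the smallest p up to 4, and the 5 genes nearest to Onecut1; some genes that this takes in are not reported here. Of the marker lists only counts, summed levels and some single genes are given.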

Additional observations from a re-analysis of the deposited data

Results flagged for a closer look

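For 4 members the GRO-seq ratio of GW4064 over vehicle had opposite signs in the 2 genotypes, with both counting intervals away from 0, and this difference between genotypes was not tested, since each value rests on 1 library over another. The log2 ratio in FXR KO minus that in WT livers was 5.46 for Onecut1 (1.72 in FXR KO and -3.74 in WT), 0.88 for Cebpa (0.40 and -0.48), 0.42 for Onecut2 (0.29 and -0.13) and -0.98 for Prox1 (-0.21 and 0.77).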

How the results depend on the processing

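With limma, 243 genes were called higher and 131 lower, and 1 member higher and none lower. With no filter these became 82 and 46 genes and 0 members. The same-numbered libraries did not deviate together, and with the replicate block limma called 0 genes, 0 members higher and 0 lower (1198 genes higher and 1129 lower at an unadjusted p under 0.05, 5 members among them), with Prox1 at an adjusted p of 0.0804 and a log2 fold change of 0.63. Leaving out 1 library gave 0 to 32 genes higher, 0 to 11 lower and 0 members (863 to 1033 genes higher, 717 to 925 lower and 3 to 5 members at an unadjusted p under 0.05). Limma-voom called 559 genes higher and 478 lower, with 2 members higher and 1 lower, and, chosen after seeing the data, 540, 437, 2 and 1 with the replicate block. Limma-voom without 1 library gave 174 to 378 genes higher and 74 to 294 lower (216 without GW4064 replicate 2), with 1 to 3 members higher and 0 lower. Over the fits without 1 library the log2 fold change of Onecut1 ran from -0.51 to 0.80 with limma and from -0.56 to 0.86 with limma-voom, lowest without GW4064 replicate 2. That of Cebpa ran from -0.061 to 0.027 with limma and turned to 0.033 and 0.016 with limma-voom without vehicle replicate 1 and without GW4064 replicate 1. Of 144 values of the members' RNA-seq changes under other settings, 126 kept both direction and call. In GRO-seq the counts of members past 1.5-fold stayed within 1.5 times under every setting run, and 8 of 120 ratios moved by more than the half-width of their counting interval, among them Onecut1 in WT livers (-2.58 with 1 RPKM added). GRO-seq depth limits Foxa1 and Foxa2 most, and no GRO-seq value has a replicate.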

Other observations

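Cux2, a cut-domain relative of the Onecut genes that was picked after its values were seen, was at 0.212 and 1.60 RPKM with GW4064 in RNA-seq, against 0.360 and 0.060 with vehicle (log2 fold change 1.43, standard error 1.05, limma adjusted p = 0.502). In GRO-seq Cux2 was at 0.840 RPKM with GW4064 and 2.32 with vehicle in FXR KO livers, against 0.081 with GW4064 and 0.063 with vehicle in WT livers. The GW4064 RNA-seq library with the higher Cux2 value was also the one with the higher values of Onecut1, Gm16551 and the 6 cholangiocyte markers. The summed level of hepatocyte markers was higher in that library too (369.0 against 330.2 RPKM). The vehicle libraries did not repeat this order: Cux2 and Gm16551 were lower in replicate 2, while Onecut1 and the 6 cholangiocyte markers were slightly or clearly higher there. In FXR KO GRO-seq Cux2 was lower with GW4064, where Onecut1 was higher.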
